A study of Mus musculus with 11 samples.

Results

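The genes described here encode the proteins of the cytosolic ribosome, and what was measured is how often HIV integrated in and around them when the viral integrase was tethered to proteins that act on RNA polymerase II. They were chosen by name: protein-coding genes of an mm9 annotation whose symbol is Rpl or Rps followed by a number and at most a few suffix letters or digits, with Rplp0, Rplp1, Rplp2 and Rpsa, and without the Rps6k kinases. The rule found 84 genes of 22350 protein-coding genes, 51 of the large and 33 of the small ribosomal subunit. The measurements had no part in the choice of single genes, although the group was proposed with earlier results of these data known.

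All cells were C57BL/6 mouse embryonic fibroblasts (MEF) of LEDGF-/- genotype, which lack the chromatin protein that normally tethers HIV integrase. They received a plasmid for a protein fused to the integrase-binding domain of LEDGF (LEDGF-IBD), were infected with HIV 24 hours later and were grown for 3 more days. The fused proteins were the NELF subunits NELFA, NELFB, NELFCD and NELFE, the DSIF subunit SPT5, the Integrator subunits INTS3, INTS9 and INTS11, and INIP, NABP1 and NABP2, which form SOSS complexes with INTS3. INTS3, INIP, NABP1 and NABP2 are called the SOSS libraries, and together with INTS9 and INTS11 they are the 6 Integrator libraries. With 1 library for each protein, different subunits take the place of replicates, and some of the spread between them may be technical. The fusions came from plasmids whose promoter is not given in the sources used here, and integration without a fused protein was not analysed here, so densities are set against a uniform spread of sites. Each library pools many cells, and more cells with a site cannot be told apart from more sites per cell.

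Ribosomal proteins are made in every growing cell, in amounts matched to each other and to ribosomal RNA, and their genes are among the most heavily transcribed by RNA polymerase II. The genes are short, many hold small nucleolar RNA (snoRNA) genes in their introns, and many of their transcripts begin with a run of pyrimidines, the 5′ terminal oligopyrimidine (TOP) sequence through which mTOR controls their translation. NELF and DSIF hold the polymerase in a pause just past the start, DSIF goes on with the elongating polymerase, and Integrator cleaves nascent transcripts.

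The promoters of 6 members are shown as examples: 5 with the highest mean site numbers, and the testis-restricted copy Rpl10l, which had almost none. Their letters were not used in the results below. Site positions there are counted from the annotated start, which at Rps2 lies 1947 bases from the median transcript start shown here. Each line holds 150 bases of mm9, 5′ to 3′ on the gene's own strand, with the last 20 beginning at the gene's median transcript start. Capitals mark matches, on either strand, to any of 5 motifs: the ETS family core CCGGAA, the core site GATGGC of the factor YY1, the GC box GGGCGG of the SP family, the TATA box core TATAAA, and the element TCTCGCG.
Rps2, chr17:24856878-24857027, plus strand: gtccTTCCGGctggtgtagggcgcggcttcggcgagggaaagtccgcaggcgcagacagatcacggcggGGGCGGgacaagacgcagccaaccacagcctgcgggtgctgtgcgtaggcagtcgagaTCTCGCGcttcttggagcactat
Rpl23a, chr11:77997067-77997216, minus strand: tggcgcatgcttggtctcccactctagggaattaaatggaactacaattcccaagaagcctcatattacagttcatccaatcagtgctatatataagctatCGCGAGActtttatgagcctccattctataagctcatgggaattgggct
Rpl10a, chr17:28465286-28465435, plus strand: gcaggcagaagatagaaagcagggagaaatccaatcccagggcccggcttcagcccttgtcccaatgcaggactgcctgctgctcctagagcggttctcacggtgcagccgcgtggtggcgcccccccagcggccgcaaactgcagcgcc
Rpl3, chr15:79913817-79913966, minus strand: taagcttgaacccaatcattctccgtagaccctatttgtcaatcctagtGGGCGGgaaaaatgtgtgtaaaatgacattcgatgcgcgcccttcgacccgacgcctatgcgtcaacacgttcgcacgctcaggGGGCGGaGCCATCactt
Rpl12, chr2:32816949-32817098, plus strand: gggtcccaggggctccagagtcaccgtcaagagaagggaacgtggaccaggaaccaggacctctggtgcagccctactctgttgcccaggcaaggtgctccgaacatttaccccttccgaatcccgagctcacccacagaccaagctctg
Rpl10l, chr12:67385369-67385518, minus strand: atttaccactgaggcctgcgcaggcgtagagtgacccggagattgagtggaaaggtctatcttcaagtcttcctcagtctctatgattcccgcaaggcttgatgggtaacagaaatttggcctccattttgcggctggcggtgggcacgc
Matches differed among these 6 promoters, and the lines of Rpl10a, Rpl12 and Rpl10l held none. Over windows from 250 bases before to 50 after the start, none of these motifs being contained in another, CCGGAA was found in 43 of 84 members (51.2%, against 17.8% of all 22350 protein-coding promoters). TCTCGCG was found in 15 (17.9% against 3.38%), GATGGC in 25 (29.8% against 14.3%) and GGGCGG in 46 (54.8% against 43.3%). TATAAA was found in 8 members (9.52% against 13.6%). A TOP-like start, C followed by at least 4 pyrimidines exactly at the annotated median start, was found in 9 members (10.7% against 1.97%), and C followed by 7 pyrimidines within 50 bases of it in 60 (71.4% against 28.5%). These matches describe letters only. Median GC content was 57.2% in member promoters and 55.7% over all.

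Integration was denser over the ribosomal protein genes than over protein-coding genes as a whole in each of the 11 libraries, and SPT5 gave the highest density. A window was the gene with 5 kb on each side, and density is the fold over a uniform spread of the library's sites on the assembled genome. Over the joined member windows, SPT5 had 862 sites and a density of 22.4-fold (95% exact Poisson interval 20.9 to 23.95, which covers counting error only). NELF libraries had 9.60 ± 2.57-fold (SD, n = 4), with NELFA at 7.15, NELFE at 7.62, NELFCD at 11.6 and NELFB at 12.05. Integrator libraries had 6.22 ± 2.13-fold (SD, n = 6), from 3.94 in INIP, 4.40 in INTS11 and 4.54 in INTS9 to 8.12 in NABP2, 8.17 in INTS3 and 8.18 in NABP1. SPT5 lay above the interval of each other library, while the NELF and Integrator ranges overlapped. Over all protein-coding genes the same measure was 1.67-fold for SPT5, 1.53 ± 0.0325 for NELF and 1.49 ± 0.146 for Integrator. Those windows cover 1146 Mb, a large part of the assembled genome, so the fold is capped at a low value and can differ little between libraries. Within 1 kb of the starts of all protein-coding genes, density was 15.05 for SPT5, 12.8 ± 2.95 for NELF and 4.27 ± 0.992 for Integrator.

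**Figure D1:**
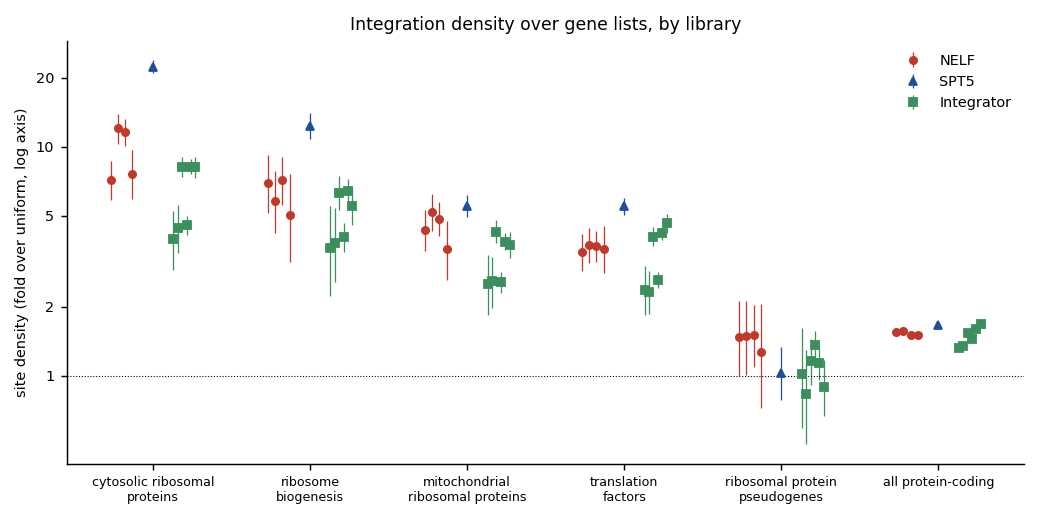
Site density (fold over uniform, log axis) over 6 gene lists, 1 point per library with its 95% exact Poisson interval. Over cytosolic ribosomal protein genes SPT5 sits at 22.4-fold, above NELF (7.15 to 12.05) and Integrator (3.94 to 8.18). Over the windows of their pseudogenes, which are mostly flank, all libraries sit between 0.831 and 1.51.

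The NELF libraries all came from 1 flow cell with no other library on it, and SPT5 was alone on its own, so in these comparisons the fused family and the sequencing run cannot be told apart. Site numbers ranged from 18753 (NELFE) to 197069 (INTS9). Within the flow cell that INTS9 shared with NABP1 and NABP2, member density was 4.57-fold for INTS9 (4.12 to 5.06), 7.98 for NABP1 (7.21 to 8.81) and 8.57 for NABP2 (7.61 to 9.61). Each of these proteins had another run, on a different flow cell for each, which gave 4.28 for INTS9, 8.41 for NABP1 and 5.98 for NABP2 (4.33 to 8.05). Fibroblast marker genes had densities of 7.75 (NELF mean), 4.45 (Integrator mean) and 13.2 (SPT5), while hepatocyte, blood and neuron marker lists had 0.290 to 1.08 in the same summaries.

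Single members varied widely around these averages. SPT5 reached 94.7-fold at its highest member and 16.9-fold at the median member, against 42.8 and 7.22 for the NELF mean and 27.6 and 4.85 for the Integrator mean. SPT5 density was above the NELF mean at 75 of 84 members and above the Integrator mean at 77, and the NELF mean was above the Integrator mean at 58. Across the 84 members, Spearman's rho was 0.70 between the NELF mean and SPT5, 0.77 between the Integrator mean and SPT5, and 0.62 between the NELF and Integrator means. These correlations are across genes that share libraries, window lengths and neighbouring genes, and they are descriptions only.

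**Figure D2:**
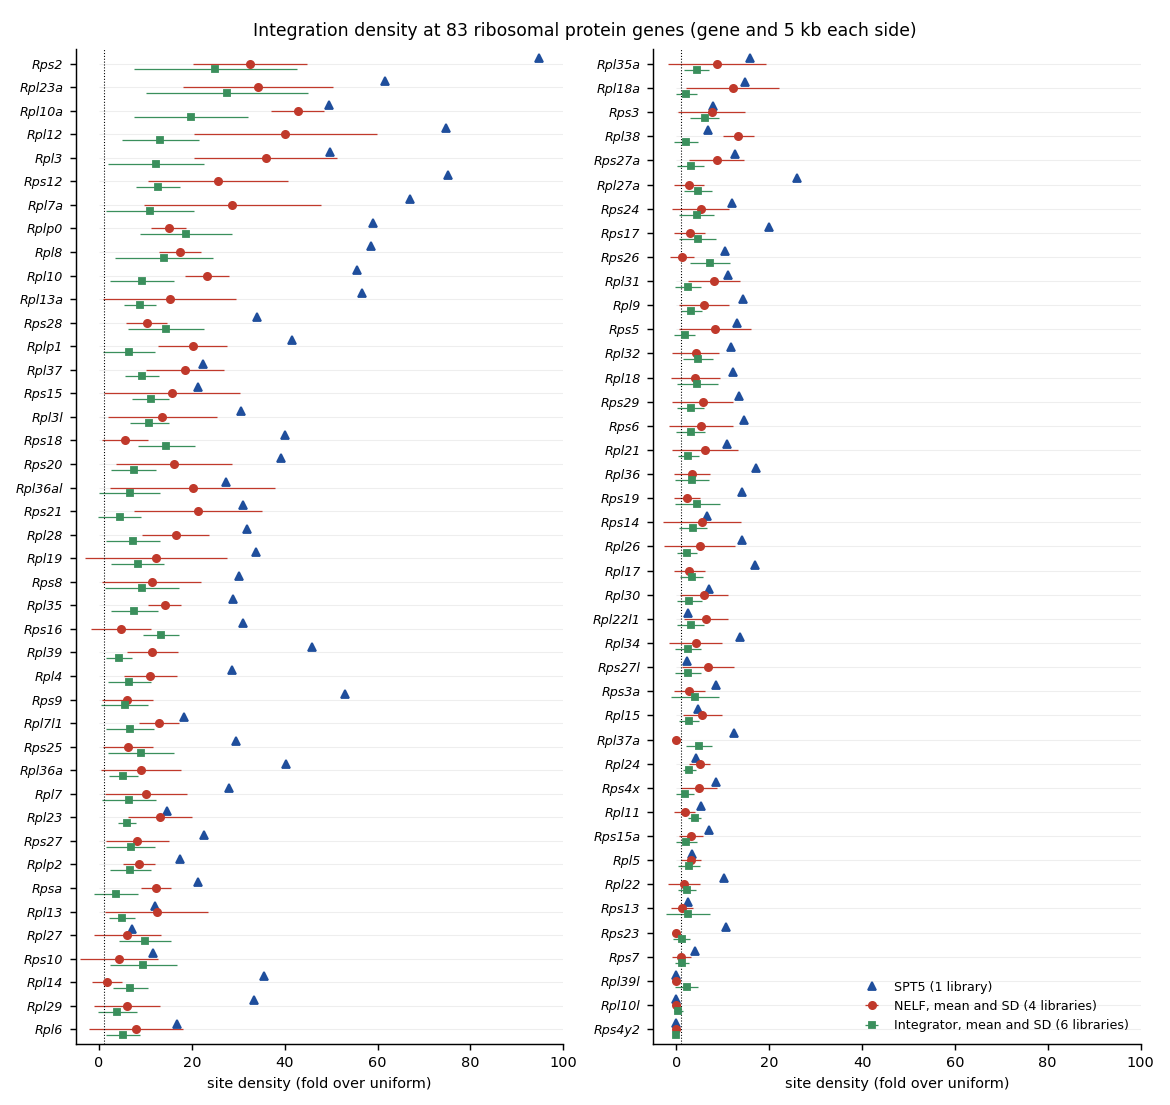
Site density (fold over uniform) at 83 of the members in order of their mean over 11 libraries: SPT5 (triangle), NELF mean with SD (circle, 4 libraries) and Integrator mean with SD (square, 6 libraries), with uniform density dotted. SPT5 lies farthest right at most members, reaching 94.7 at Rps2, and the 3 members at the bottom right have few or no sites.

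The small-subunit gene Rps2, whose product lies at the mRNA entry of the ribosome, had the most sites per 100000 of its library among members (mean over 11 libraries 18.4; density 34.1-fold). It lies on chromosome 17 from 24855061 to 24858874, and its window also covers Rnf151, Snhg9 and Ndufb10, so its sites cannot be assigned to it alone. Rps2 had 51.2 sites per 100000 in SPT5, 26.6 in NELFA, 16.15 in NELFB, 17.0 in NELFCD and 10.7 in NELFE, and 2.95, 13.9 and 25.5 as the lowest, median and highest of the Integrator libraries. SPT5 was highest and the NELF and Integrator ranges overlapped. Rps12 (chromosome 10, 23504990 to 23507015), a small-subunit gene with 3 snoRNA genes inside it and no other protein-coding gene in its window, had 35.4 sites per 100000 in SPT5. Its NELF values were 6.64, 19.4, 17.0 and 5.33 for NELFA, NELFB, NELFCD and NELFE, and Integrator ran from 4.02 through a median of 5.51 to 10.2. Again SPT5 stood apart, and the lower NELF values lay within the Integrator range. Rpsa, also known as the laminin receptor precursor and part of the small subunit, had 12.2 in SPT5, 6.64, 6.46, 9.69 and 5.33 in the NELF libraries in the same order, and 0, 1.02 and 6.80 in Integrator.

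Rpl3 encodes a core large-subunit protein that reaches towards the peptidyl transferase centre. It lies on chromosome 15 from 79908211 to 79913836, with 2 snoRNA genes inside it and no other protein-coding gene in its window. Rpl3 had 30.5 sites per 100000 in SPT5, 19.9 in NELFA, 9.69 in NELFB, 31.5 in NELFCD and 26.7 in NELFE, and 0, 6.28 and 18.1 as the Integrator lowest, median and highest. Here NELFCD exceeded SPT5, and NELFB lay within the Integrator range. Rpl8, another core protein of that centre, had 28.0 in SPT5, 6.64, 6.46, 9.69 and 10.7 in the NELF libraries, and 0, 6.28 and 14.5 in Integrator. Its window also covers Commd5 and Zfp647.

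Genes of the stalks, the mobile arms that handle tRNAs and elongation factors, included 3 of the 10 members with the most sites. Rpl10a (chromosome 17, 28465416 to 28467977) encodes the protein of the L1 stalk, and its window covers Fance and Tead3. It had 24.4 sites per 100000 in SPT5, 23.3, 22.6, 17.0 and 21.3 in NELFA, NELFB, NELFCD and NELFE, and 2.95, 9.79 and 15.9 in Integrator. Every NELF library was above every Integrator library at Rpl10a, which of the 13 members tested below held for this 1 (4.72% of all genes tested), and with a minimum of 2 sites for Rpl10, Rpl10a and Rpl38 of 50 (3.11%). Rpl12 (chromosome 2, 32817079 to 32820016; window shared with Lrsam1) encodes the protein at the base of the P stalk. It had 37.8 in SPT5, 13.3, 25.8, 31.5 and 10.7 in the NELF libraries, and 0, 6.06 and 11.3 in Integrator. NELFE at Rpl12 lay just under the highest Integrator value. The scaffold of the P stalk, Rplp0 (chromosome 5, 116009476 to 116013736; window with Pxn and Gcn1l1), had 32.9 in SPT5, 6.64, 6.46, 9.69 and 10.7 in the NELF libraries, and 4.06, 9.59 and 18.7 in Integrator, so NELF and Integrator overlapped fully there. Its acidic partners had fewer sites: the 11-library mean was 6.44 at Rplp1, with 18.3 in SPT5, and 4.68 at Rplp2, with 9.75 in SPT5.

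Other large-subunit genes among the top 10 were Rpl23a, Rpl13a, Rpl7a and Rpl3l. Rpl23a (chromosome 11, 77994434 to 77997086), whose product lies at the exit of the nascent chain, had 30.5 sites per 100000 in SPT5, 6.64, 25.8, 19.4 and 16.0 in the NELF libraries, and 4.02, 12.8 and 28.0 in Integrator. INTS3 gave that highest Integrator value with 27 sites, close to SPT5, and the window also covers Nek8, Tlcd1 and Rab34. Rpl7a (chromosome 2, 26766284 to 26768838; window with Med22, Surf1 and Surf2), which has 4 snoRNA genes inside it, had 32.9 in SPT5, 6.64, 22.6, 21.8 and 5.33 in the NELF libraries, and 0, 5.94 and 10.4 in Integrator. At Rpl13a (chromosome 7, 52380928 to 52391787), known also for silencing inflammatory mRNAs when released from the ribosome, SPT5 had 46.3, the NELF libraries 3.32, 29.1, 12.1 and 5.33, and Integrator 3.05, 6.96 and 10.4. The Rpl13a window also covers Flt3l and Aldh16a1.

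The tissue-restricted copies lay at opposite ends. Rpl3l, the copy of Rpl3 used in heart and skeletal muscle, had 21.9 sites per 100000 in SPT5, 13.3, 6.46, 19.4 and 0 in the NELF libraries, and 4.02, 7.82 and 12.5 in Integrator. It lies just past Rps2 on chromosome 17 (24864774 to 24873094) with Ndufb10 and Sepx1 in its window, and within 1 kb of its own start SPT5 and each NELF library had 0 sites. The Rpl3l window also overlaps that of Rps2, and sites in the overlap count for both genes, so its values are not separate from those of Rps2. The testis-restricted copies Rpl10l and Rpl39l had 2 and 6 sites in all libraries together, 0 of them in SPT5 or NELF. Rps4y2 had 0 sites in every library. A count of 0 allows up to 3.66 sites per 100000 in SPT5 and up to 16.0 in NELFE, for counting error only, and 1.52 in INTS9. Rps13, Rps7 and Rps23, named after their values were seen, had 7, 8 and 10 sites in all libraries together. Rpl24 and Rpl11, annotated at 42639 and 25164 bases, were low per length with mean densities of 3.73 and 3.28.

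**Figure D3:**
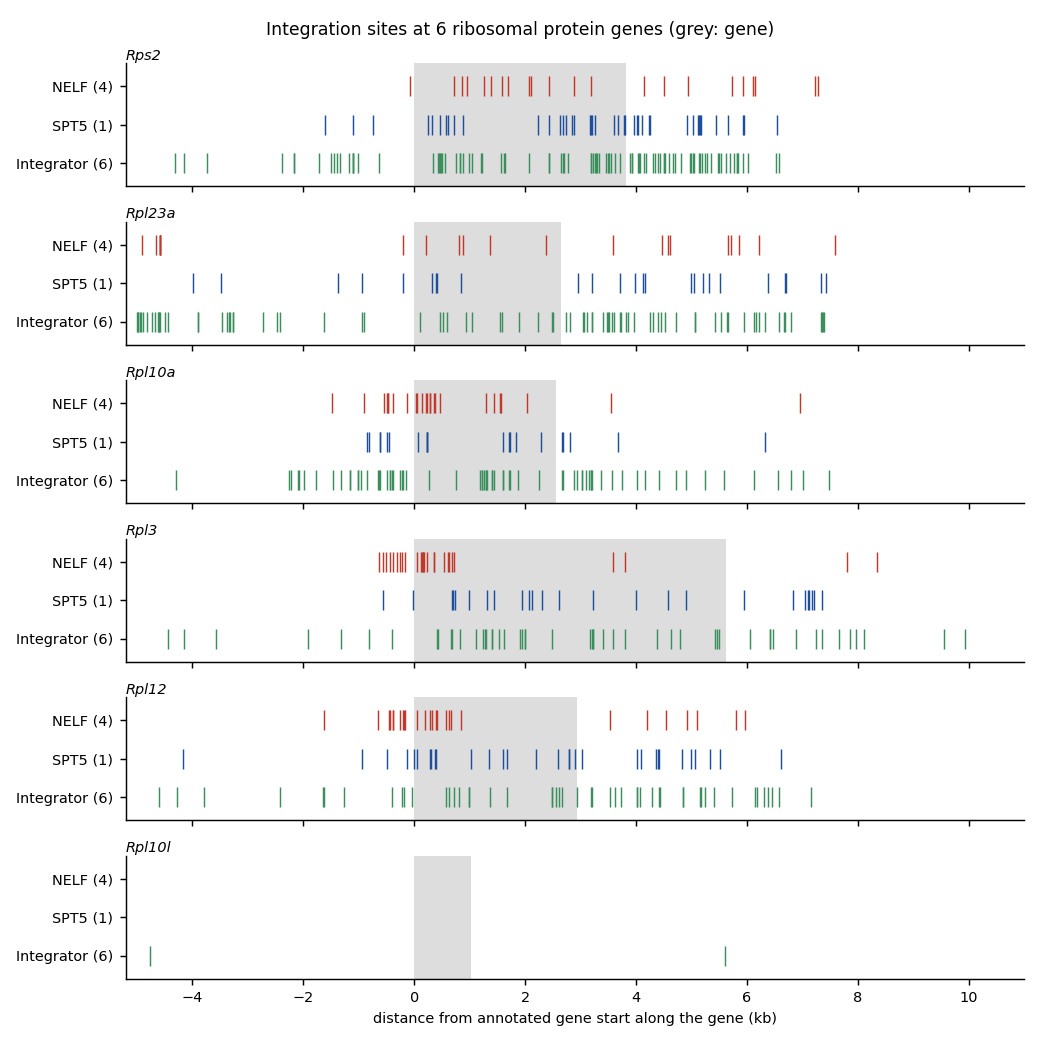
Positions of integration sites (ticks) from 5 kb before to 5 kb past 6 members, as distance in kb from the annotated start along the gene, pooled within NELF (4 libraries), SPT5 (1) and Integrator (6), with the gene in grey. NELF ticks gather around the start at Rpl10a, Rpl3 and Rpl12, SPT5 ticks run across the gene and past its end, and Rpl10l has 2 ticks.

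The families differed in where along these genes their sites fell. NELF sites gathered at starts, SPT5 sites at starts and along the rest of the gene, and Integrator sites were spread over start, body and end. Mean Integrator density was 7.74-fold at starts, 7.75 in bodies and 9.004 at ends, against 4.48 upstream. The start was the densest zone in INIP (6.26, from 10 sites) and INTS11 (6.43, from 14 sites). In INTS3, INTS9, NABP1 and NABP2 it was the end. Within 1 kb of a start lay 38.1% of member sites in NELFA, 44.75% in NELFB, 53.25% in NELFCD and 47.1% in NELFE, against 34.8% in SPT5 and 14.3 to 20.8% in the Integrator libraries (mean 17.1 ± 2.65%), while this zone made up 13.5% of window length. The NELF and Integrator shares did not overlap, and SPT5 lay between them. The NELF and Integrator shares were also apart at all protein-coding genes under 10 kb. Start shares there were 33.4 ± 4.75% in NELF, 18.5 ± 2.82% in Integrator and 31.9% in SPT5. Densities at starts were 33.6 ± 12.0-fold for NELF, 7.74 ± 2.08-fold for Integrator and 59.9-fold for SPT5. Within 1 kb of the annotated end the order changed: 10.1 ± 3.43% of NELF, 18.7 ± 3.37% of Integrator and 20.9% of SPT5 sites, with densities of 7.27 ± 2.57, 9.004 ± 4.16 and 35.9. Gene bodies between these zones held 13.1 ± 3.82% of NELF, 21.0 ± 3.57% of Integrator and 19.1% of SPT5 sites. In these shares a site in the windows of more than 1 member counts once for each. That gave 906 in SPT5, against 862 sites in the joined windows.

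**Figure D4:**
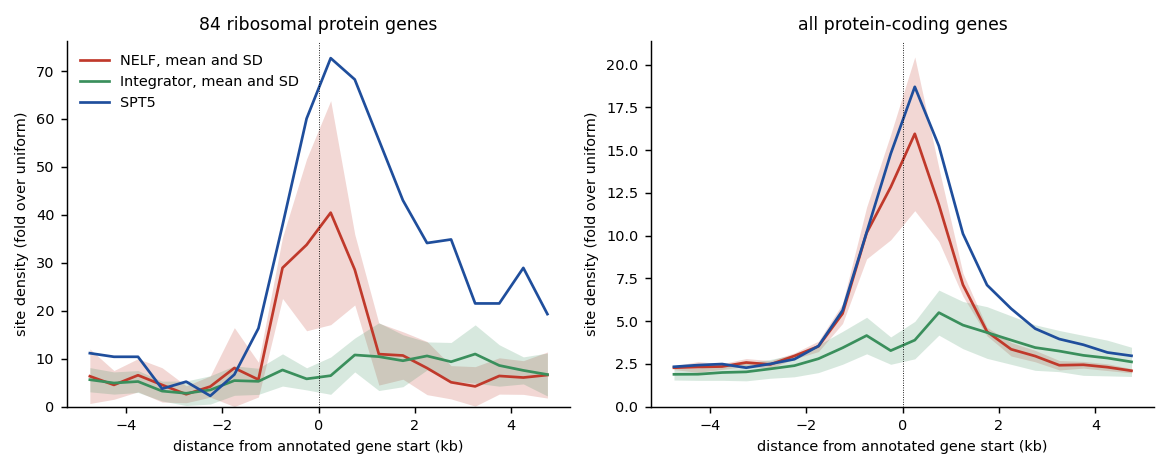
Site density (fold over uniform) in bins of 500 bases around annotated starts of the 84 members (left) and of 22350 protein-coding genes (right, smaller y scale), as SPT5 and as NELF and Integrator means with SD bands. At members SPT5 peaks at 72.7 and is still 34.9 between 2500 and 3000 bases past the start, where NELF is 5.06 and Integrator 9.35.

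In bins of 500 bases the first bin past the start was highest for SPT5 (72.7-fold) and for the NELF mean (40.5 ± 23.4-fold). The NELF libraries differed: NELFB was highest in that bin (66.8), and NELFE there and in the next bin (29.2 in both). NELFCD was highest in the bin just before the start (60.5 against 51.6 past it), and NELFA in the last 2 bins before it (24.3 in both against 14.2). The NELF mean was 10.9 ± 6.46 between 1000 and 1500 bases past the start, and SPT5 was at 55.6. Past the start the Integrator mean ranged from 6.44 ± 3.89 in the first bin to 10.96 ± 6.08 between 3000 and 3500 bases. Over all protein-coding genes SPT5 peaked at 18.7 and had 4.56 between 2500 and 3000 bases.

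Ribosomal protein genes are short, with a median of 3238 bases, so protein-coding genes under 10 kb were compared as well. The excess of members over these short genes was larger in SPT5 at each zone than in the mean of either family. At starts SPT5 density was 4.32 times that of short genes, against 2.74 ± 0.723 in NELF and 2.07 ± 0.400 in Integrator. At ends the ratio was 6.34 in SPT5, 1.74 ± 0.596 in NELF and 3.22 ± 0.677 in Integrator, and in bodies 4.15, 2.39 and 2.24. Start density over end density at members was 4.83 ± 1.35 in NELF (short genes 2.98 ± 0.797), 1.67 in SPT5 (2.44) and 0.941 ± 0.240 in Integrator (1.44 ± 0.282). In each of the 4 NELF libraries the start outweighed the end more at members than at short genes, and in SPT5 and each of the 6 Integrator libraries less. These ratios have no interval, and some rest on few member sites. At starts and ends there were 10 and 9 in INIP, 14 and 11 in INTS11, 40 and 7 in NELFA, and 32 and 10 in NELFE. Single libraries may therefore differ from short genes by counting error alone.

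**Figure D5:**
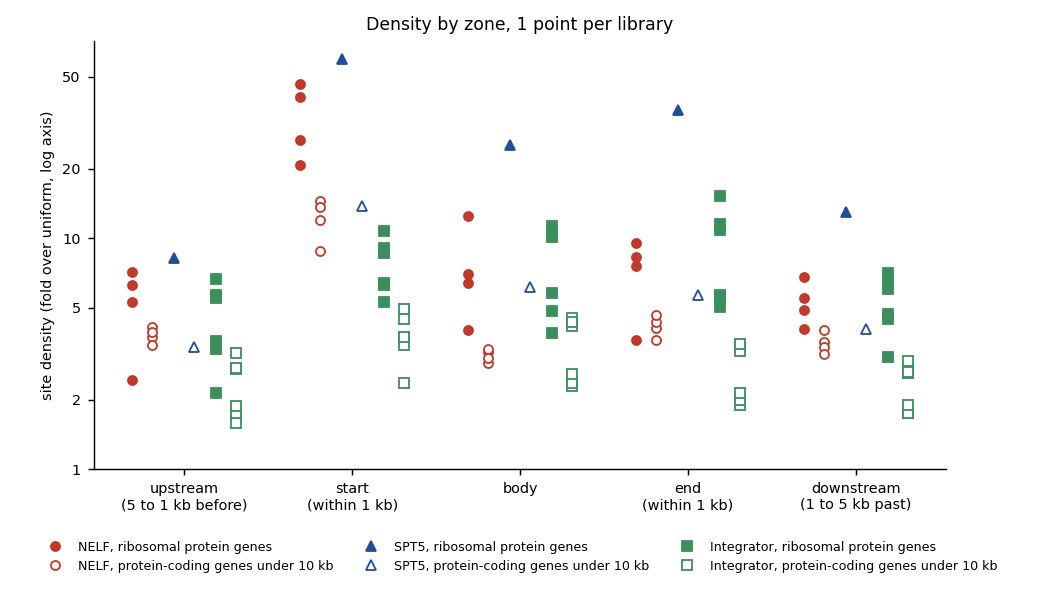
Site density (fold over uniform, log axis) in 5 zones of the gene windows, 1 point per library, filled for ribosomal protein genes and open for protein-coding genes under 10 kb. SPT5 stays high from start (59.9) to end (35.9) of members, and NELF falls from 33.6 on average at starts to 7.27 at ends.

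The NELF and Integrator libraries were compared gene by gene with limma on log2(sites per 100000 + 1), which understates folds of genes with few sites. With the full windows no member passed, and within 1 kb of starts 6 did. Of 84 members, 13 had the mean of 5 sites needed in the 10 libraries. In the full windows 0 of 13 were higher and 0 lower in NELF at a Benjamini-Hochberg adjusted p under 0.05, where 2.16% and 0.346% of the 3752 genes tested were. At an unadjusted p under 0.05 it was 3 of 13 against 16.3% of all genes. The differences with the highest values were at Rpl3 (log2 difference 1.79, SE 0.658, limma adjusted p = 0.175), Rpl12 (1.69, SE 0.627, adjusted p = 0.178), Rpl7a (1.58), Rpl10a (1.26) and Rps12 (0.78). Lower values in NELF were found at Rps28 (-0.35), Rpl3l (-0.29) and Rplp0 (-0.16), none past the threshold. Tested members had a positive difference in 10 of 13 cases, where 44.2% of all genes tested did, and a median of 0.67 against -0.13.

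Starts gave another picture. Within 1 kb of the start, 7 members had the mean of 2 sites needed, and 6 were higher in NELF, beside 54% of the 478 genes tested, with 0 lower in either. The same 6 had an unadjusted p under 0.05, as did 60.9% of genes. The minimum is a mean over the NELF and Integrator libraries together, so a gene can pass it through its NELF sites alone. Such selection favours genes that are higher in NELF, among members and among all genes tested. Rpl3, with the largest difference, passed the minimum through its NELF sites alone. The adjusted p-values at starts carry this selection and are not separate support for a difference. At Rpl3, 16.6 sites per 100000 lay there in NELFA, 6.46 in NELFB, 26.7 in NELFCD and 26.7 in NELFE, from 5, 2, 11 and 5 sites, against 0, 0.773 and 3.40 as lowest, median and highest of Integrator and 7.31 in SPT5. All NELF values lay above all Integrator values, and the log2 difference was 3.35 (SE 0.653, limma adjusted p = 6.934e-06). Rpl12 had 6.64, 16.15, 24.2 and 10.7 at its start in NELFA, NELFB, NELFCD and NELFE, 0, 0.254 and 4.25 in Integrator and 10.97 in SPT5, a log2 difference of 3.13 (SE 0.686, adjusted p = 7.773e-05). The Rpl7a start had 3.32, 16.15, 14.5 and 5.33 in NELF, 0, 0.519 and 2.27 in Integrator and 15.9 in SPT5 (log2 difference 2.48, adjusted p = 0.00787). Rpl10a had 6.64, 16.15, 14.5 and 21.3 in NELF, 0, 3.17 and 4.78 in Integrator and 12.2 in SPT5 (2.10, adjusted p = 0.00685). These are the 4 members at which every NELF library was above every Integrator library at the start, as it was at 35.4% of genes tested.

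The small-subunit gene Rps21 had 3.32, 12.9, 12.1 and 5.33 sites per 100000 at its start in NELFA, NELFB, NELFCD and NELFE, and 0, 0.832 and 4.15 in Integrator (log2 difference 2.09, adjusted p = 0.0153). NELFA fell within the Integrator range at Rps21, and without NELFB its adjusted p was 0.0732. The sixth was Rpl10, whose product joins the large subunit late in its assembly and which is named here after its values were seen. Its log2 difference was 1.71 with an adjusted p of 0.0451, and 8 alternatives ended the call with adjusted p-values from 0.0542 to 0.0866, 5 of them leaving out NELFA, INIP, INTS11, INTS9 or NABP1. Rplp0 had 1.51 and did not pass (adjusted p = 0.0888). All 7 had positive differences, but so had 94.6% of all genes tested, whose median was 1.67, beside 2.10 for the members. Without NELFCD, 3 members were tested at starts and all 3 passed. The annotated start lay over 1 kb from the median transcript start at Rpl13a (7669 bases), Rpl18 (2700), Rps2 (1947) and Rps10 (1353), and from the median start 8 of 9 members tested were higher in NELF.

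SPT5 had more sites per 100000 than each of the other 10 libraries at 11 of the 13 members, where 13.1% of all genes tested did. Rps2 and Rpl3l, both among these 11, have overlapping windows and share sites. SPT5 sites were not used to decide which genes were tested. The exceptions were Rpl3, where NELFCD was higher, and Rpl24, where 5 libraries were. Among tested members the ratio of SPT5 to the mean of the other 10 libraries was 4.98 at Rpl13a, 4.21 at Rps12, 3.81 at Rpl8, 3.71 at Rpl7a and 3.43 at Rplp0. With a lower minimum of 2 sites, chosen after seeing the data, it was 34 of 50 members beside 13.8% of genes. Without NABP1 only 8 members were tested, and 7 of them had SPT5 on top. At starts alone SPT5 was above the other 10 at 1 of 7 members, Rpl10, beside 11.1% of genes tested. With 1 SPT5 library there is no test of these values.

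The share of members with a site differed between libraries more than the share of all genes did. At the depth of the smallest library, SPT5 would have hit 66.3 of 84 members (78.9%), NELFB 52.5, NELFCD 51.2, NELFE 45 and NELFA 40.3, and the Integrator libraries from 29.5 in INTS11, 30.5 in INIP and 30.8 in INTS9 to 41.7 in INTS3, 42.45 in NABP2 and 42.6 in NABP1. Of all protein-coding genes, 33.45 to 38.4% were hit in each library. In INTS11, INIP and INTS9 the share of members hit (35.1, 36.3 and 36.7%) was close to that of all genes (33.7, 33.45 and 36.05%). The 10 members with the most sites in a library held 26.8% of member sites in INTS9, 33.1% in SPT5 and 41.9% in NELFA, the lowest and highest shares being the first and last. Unlike the numbers of members hit, these shares were not brought to a common depth. They rest on 426, 906 and 105 member sites. INIP, with 48 member sites and at most 2 at any member, had 41.7%, so the shares do not show concentration on few genes.

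Large-subunit genes were denser in sites than small-subunit genes in the 4 NELF libraries, with ratios of 1.46 (NELFA), 1.31 (NELFB), 1.40 (NELFCD) and 1.22 (NELFE). The counting interval held 1 in 3 of these and not in NELFCD (1.05 to 1.89). Some large- and small-subunit windows overlap, and sites there count on both sides, which the intervals ignore. SPT5 had 573 large-subunit and 333 small-subunit sites, beside 862 in all member windows joined. The ratio was 1.01 in SPT5 (0.878 to 1.16) and 0.963 ± 0.242 in Integrator, from 0.538 in INIP (0.292 to 0.988) to 1.17 in INTS3 and INTS9. In genes with no flank the NELF mean was 1.06 and SPT5 0.793. Start shares were 46.8 ± 6.95% for large and 43.5 ± 5.89% for small-subunit genes in NELF, 33.7% and 36.6% in SPT5, and 13.7 ± 1.69% and 21.7 ± 6.85% in Integrator.

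The 30 members with a snoRNA gene inside had densities of 13.9 ± 4.499 in NELF, 7.86 ± 2.83 in Integrator and 31.2 in SPT5, against 7.50 ± 1.68, 5.48 ± 1.86 and 18.2 for the 54 without. Windows of 62 members touched another protein-coding gene. The other 22 had 16.9 in SPT5, with 6.70 ± 2.27 in NELF libraries and 4.77 ± 1.19 in Integrator libraries. Neither contrast was tested, and window neighbours and gene lengths differ between these classes. Of sites inside member genes, 49.8% of SPT5 sites lay in exons (exact binomial 45.0 to 54.5), which hold 40.1% of gene length, as did 47.2 ± 2.62% of NELF and 38.8 ± 7.22% of Integrator sites. NABP1 had 33.4% (28.2 to 39.0) and INTS9 31.7%. The strand recorded for a site was that of the gene in 53.1% of SPT5 sites (48.4 to 57.9), 41.9 ± 8.36% of NELF and 48.4 ± 7.73% of Integrator sites. Whether the recorded strand is that of the provirus was not checked.

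Each of 3 other lists of protein synthesis had lower mean densities than the cytosolic ribosomal protein genes in NELF, Integrator and SPT5. The 76 mitochondrial ribosomal protein genes, whose products build the separate ribosome of mitochondria, had 5.52-fold in SPT5, 4.49 ± 0.716 in NELF and 3.25 ± 0.784 in Integrator. Translation factor genes (66) had 5.50, 3.61 ± 0.122 and 3.37 ± 1.04. The 23 ribosome biogenesis genes, which make, modify and assemble ribosomal RNA and include Ncl, Npm1 and Fbl, had 12.3, 6.24 ± 1.01 and 4.95 ± 1.29. Joined windows covered 1.84 Mb (mitochondrial), 2.85 Mb (translation factor) and 0.597 Mb (biogenesis), against 1.20 Mb for the 84 members. Windows per gene were thus longer in each of these lists, and the densities, which are per base, were not matched for gene length. The windows of 163 pseudogenes named as ribosomal protein copies had 1.03, 1.44 ± 0.114 and 1.06 ± 0.192. With 5 kb on each side, most of the 1.72 Mb they covered was flank, so these values mainly describe the sequence around the pseudogenes.

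In the gene by gene comparison with full windows, 0 of the 8 mitochondrial, 0 of the 23 translation factor and 0 of the 5 biogenesis genes tested passed in limma, with 0, 4 and 0 at an unadjusted p under 0.05 (16.3% of all genes tested). SPT5 was above all other libraries at 4, 6 and 3 of them, where 13.1% of all genes tested had this. At starts 0 of 2 mitochondrial, 3 of 4 translation factor (Eif1, Eif4a2 and Eif4g2) and 2 of 2 biogenesis genes (Bop1 and Ubtf) were higher in NELF, beside 54% of all genes tested there. Nop56, which holds snoRNA genes and guides methylation of ribosomal RNA, had 46.3 sites per 100000 in SPT5, 6.64, 16.15, 9.69 and 16.0 in NELFA, NELFB, NELFCD and NELFE, and 4.02 to 15.6 in Integrator. Bop1, of the large-subunit assembly complex, had 46.3 in SPT5, 26.6, 29.1, 38.8 and 16.0 in the NELF libraries, and 12.04 to 35.2 in Integrator. Both were chosen after their values were seen.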

How the data were processed

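HIV integration sites of 11 libraries were analysed, 1 per fused protein. Per the file headers, each deposited entry is an integration position with its strand, a value other than a count or signal. The build is mm9, per the submitters' processing notes. The sources used here name no aligner or filter. Entries sharing chromosome, position and strand were merged, which left 831994 sites of 873534 entries. The gene annotation has the same build. Members, gene lists and tests were chosen with earlier results of these data known. Libraries were grouped as 4 NELF, 6 Integrator and SPT5.

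Windows were genes with 5 kb on each side, zones 1 kb around annotated starts and ends. NELF and Integrator were compared with limma 3.58.1 (trend and robust, R 4.3.3) on log2(sites per 100000 + 1), with at least a mean of 5 sites (starts 2) over these 10 libraries. On simulated counts the full-window fit recovered 58% of genes changed 4-fold and 8% of those changed 2-fold upward (3752 genes), and the start fit 48% and 2% (478 genes). Of genes lowered to 0.25-fold and 0.5-fold in NELF, the full-window fit recovered 14% and 2%, and the start fit 16% and 12%. False calls numbered 0 in the full-window fit and 3 in the start fit. A count of 0 members lower in NELF thus says little, because both fits miss most such genes. Intervals are exact Poisson or Clopper-Pearson at 95%. Single values of a summed list have no test.

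Named genes are the 10 members with the highest mean over 11 libraries, members past the threshold or, where fewer than 5 passed, the 5 with the largest fold per direction (starts: 5), the 5 with the largest SPT5 ratio, tissue-restricted copies, the P proteins, Rpsa and members with no site. Other windows, pseudocounts, filters, scalings and left-out libraries were tried. Promoter letters were read from the mm9 genome, and protein sequences were not used here. Values of 1 member and of 1 gene list are not reported here.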

Additional observations from a re-analysis of the deposited data

Results flagged for a closer look

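Among 54 sets of 6 Integrator or 4 NELF values (shares of zones and the named members), 4 held a library far from the others by Dixon's test, where chance flags about 1 in 20 sets. The share of member sites within 1 kb of gene ends was 25.1% in NABP2, against a median of 17.6% in the other Integrator libraries. Rps12 had 10.2 sites per 100000 in NABP2, against 5.19. Within 1 kb of the start, Rpl12 had 4.25 in NABP1, against 0, and Rpl3 had 3.40 in NABP2, against 0.507. All 4 were the highest of their set.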

How the results depend on the processing

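No paired analysis was possible because the labels give no replicate numbers and each protein has 1 library. In SPT5 the large to small ratio, 1.01, changed side: it was 0.793 with no flank and 1.22 as a ratio of medians. With INTS9 and INTS11 alone as the Integrator side, 3 members (Rpl10a, Rpl3 and Rps2, of 5 tested) were higher in NELF in full windows, instead of 0, beside 185 of 2281 genes tested. At starts the count of 6 members (of 7 tested) became 1 with a window of 0.5 kb and 0 with a mean of at least 5 sites, where no member was tested, and ran from 3 (without NELFCD) to 6 with 1 library left out. Where more members were tested, a smaller share passed. It was 5 of 14 with a window of 2 kb, beside 283 of 1393 genes, and 7 of 22 with a mean of at least 1 site, beside 370 of 2176 genes. The adjusted p of Rpl10a at its start was 0.0667 with 2 kb, beside 0.00685. The count of members with SPT5 on top was 11 of 13 tested and became 1 of 1 with no flank, 2 of 5 with a flank of 1 kb (40% of members tested against 84.6%, beside 8.48% of all genes) and 34 of 50 with a mean of at least 2 sites, and ran from 7 (without NABP1) to 14 with 1 library left out. Fewer members are tested under the narrower windows and the higher minimum, but with 1 kb 3 of the 5 tested did not have SPT5 on top. The causes of these changes were not tested.

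Density with no flank was 13.2 (NELF) and 37.4 (SPT5), with 1 kb 15.4 and 38.6, and in windows that touch no other protein-coding gene 6.70 and 16.9. The median over members, taken in each library and then averaged, was 4.05 for Integrator, and it was 16.9 for SPT5. With zones of 0.5 or 2 kb, start shares were 25.3 or 54.2% (NELF), 6.96 or 29.6% (Integrator) and 19.65 or 46.9% (SPT5). Body shares were 25.7 or 5.70% (NELF), 31.7 or 9.38% (Integrator) and 34.55 or 5.63% (SPT5), and end shares 3.603 or 19.96%, 7.17 or 33.1% and 9.49 or 33.55%. From the median transcript start, body shares were 8.87% (NELF) and 15.6% (SPT5). With no flank, members hit at the smallest depth were 25.06 (NELF), 17.5 (Integrator) and 51.4 (SPT5). The large to small ratio in NELF was 1.485 without the top member of each subunit, 1.06 with no flank and 1.99 as a ratio of medians. The smaller libraries (18753 to 33939 sites) hold few sites per gene, so single genes there carry wide counting error.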
